A study of Homo sapiens with 6 samples.

Results

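Replication-dependent histone genes were followed in ES-2 cells, an established line of ovarian clear cell carcinoma, with the microRNA miR-182 inhibited. Members were taken by gene symbol, as every probe annotated to H1-1 through H1-6 or to a numbered gene of the H2AC, H2BC, H3C or H4C series, which gave 72 of the 48803 probes on the array and 64 of the 18852 genes named on it. One group of 3 arrays came from cells transfected with a miR-182 hairpin inhibitor at 50 nM, and the other group of 3 came from cells given a negative control hairpin inhibitor built on a worm microRNA, for which no concentration is stated separately. Both groups were the same line in the same medium, were treated with the same transfection reagent and were harvested at 48 h, and each array was a separate biological replicate. The study's design text calls the reagents mimics, whereas the sample labels and protocols call them inhibitors, and the labels' wording is used here. A single cell line limits what the groups can stand for, and no probe was used here to read miR-182 itself, so the depth of its inhibition is not known from these arrays.

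Core histones H2A, H2B, H3 and H4 form the spool around which DNA is wound, and linker histone H1 sits where the DNA enters and leaves it. Replication-dependent members are made mainly in S phase, when new DNA has to be packaged. Most of their transcripts have no intron and end in a stem-loop bound by SLBP in place of a poly(A) tail, although polyadenylated forms are known for several members. Illumina's usual labelling starts from poly(A) tails, and the labels say only that the Illumina protocol was followed, so which form of a transcript a probe reported was not tested.

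The microRNA that the reagent is directed against is shown first, from RefSeq on GRCh38.p14 (chr7:129770447-129770470, minus strand), with its seed, bases 2 to 8, in capitals. The 150 bases before the annotated start of 4 histone genes follow, also from RefSeq on GRCh38.p14 and read 5′ to 3′ on the gene's own strand, for the pair of members with the smallest p in the comparison and for the H1 and H2B members farthest from 0. Their windows are chr6:26045234-26045383 for H3C3 (plus strand), chr1:149842751-149842900 for H2AC18 (minus strand), chr6:27132796-27132945 for H2BC11 (minus strand) and chr6:26017788-26017937 for H1-1 (minus strand). Capitals mark CCAAT and TATAAA on either strand.
hsa-miR-182-5p: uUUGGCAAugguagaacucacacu
H3C3: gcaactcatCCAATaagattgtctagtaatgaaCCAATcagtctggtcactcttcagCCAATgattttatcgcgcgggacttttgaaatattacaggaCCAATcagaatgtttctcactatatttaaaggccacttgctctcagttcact
H2AC18: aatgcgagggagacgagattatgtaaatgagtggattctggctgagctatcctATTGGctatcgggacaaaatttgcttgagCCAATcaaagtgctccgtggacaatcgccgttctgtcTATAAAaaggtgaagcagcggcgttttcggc
H2BC11: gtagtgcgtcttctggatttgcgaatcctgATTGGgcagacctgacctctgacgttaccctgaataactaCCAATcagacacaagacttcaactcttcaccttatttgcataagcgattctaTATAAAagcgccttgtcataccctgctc
H1-1: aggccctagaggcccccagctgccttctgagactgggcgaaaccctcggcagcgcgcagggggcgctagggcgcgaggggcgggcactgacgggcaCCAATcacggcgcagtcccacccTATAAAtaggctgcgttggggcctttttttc

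H3C3 held 4 CCAAT matches in this window, H2AC18 and H2BC11 held 2 each, and H1-1 held 1. In promoters of 300 bases (250 before the start and 50 after it), which matched 59 of the 64 genes, 84.7% of members held CCAAT on either strand, against 35.7% of all 27305 promoters in the table. TATAAA on either strand was found in 66.1% of members and in 12% of all promoters. The octamer ATTTGCAT, searched on both strands and chosen after the sequences were seen, was in 14 of 18 H2B and 10 of 14 H2A promoters. It was in 1 of 9 H3, 0 of 6 H1 and 0 of 12 H4 promoters, and in 1.80% of all promoters. CCAAT was present in every H1, H2A, H2B and H3 promoter matched and in 3 of 12 H4 promoters. Each motif was counted by itself, so matches of different motifs may overlap, and a match is not a bound site. Many H2A and H2B genes stand back to back with starts 194 to 248 bases apart, so their promoters overlap. The same match can then be counted for both genes, and the counts are not of separate promoters. The H2AC18 promoter was identical to that of its copy H2AC19 over 299 of 299 aligned bases, that of H4C14 was identical to that of H4C15 over 300 of 300, and those of H3C14 and H3C15 shared 34.7% of bases at matching positions. Each pair was laid together without gaps and with a shift of a few bases at most. A larger offset between annotated starts would lower the share, and this was not tested for H3C14 and H3C15. Whether a probe reads both genes of such a pair was not tested.

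Detection at p under 0.05 was reached by 20365 to 22473 probes on an array (41.7% to 46.0%), and the median probe was read from 40 to 41 beads. Values below are log2 signals after background correction and normalization, and the lowest value among detected probes lay between 4.50 and 4.62 on the 6 arrays. Each probe binds with its own efficiency, so a value is set only against the same probe on other arrays. Of the line's markers, VIM, CDH2, KRT8, KRT18, MKI67 and TOP2A were detected on all 6 arrays. Among clear cell markers ARID1A and ANXA4 were detected on 6 arrays and PAX8 on 3, while NAPSA and GPX3 were detected on none. EPCAM was detected on 2 arrays, and KRT19 and CDH1 on none. PTPRC of leukocytes and VWF of endothelium were detected on no array and CD3E on 1, whereas CD14 and PECAM1 were detected on 6 and CDH5, a cadherin of endothelium, averaged 10.0 with the inhibitor and 10.1 with the control.

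No histone gene passed the test when miR-182 was inhibited, and their differences were centred near 0. A gene was tested where its probe was detected on at least 3 arrays, which 36 of the 64 members met (56.2%), compared with 64.1% of all genes named on the array. With the inhibitor, 0 of the 36 members were higher and 0 lower in limma at an adjusted p under 0.05, where the background was 0% of 12087 genes in either direction. The median log2 difference of the members was −0.0071, and that of all genes tested was 0.000015. Above 0 lay 17 members (47.2%), beside 50% of all genes. The median size of a difference, whatever its sign, was 0.068 among members and 0.065 among all genes tested. At an unadjusted p under 0.05 there were 2 members (5.56%), both with more signal under the inhibitor, against a background of 7.65% of all genes (3.5% higher and 4.15% lower). The inhibitor arrays lay wholly above the control arrays in 2 members (H2AC18 and H3C3) and wholly below them in 1 (H1-1), so 8.33% did not overlap, against 13% of all genes (6.8% above and 6.23% below). These shares lay near or under the background.

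Precision was that of 3 arrays per group. The 95% interval of a member reached a median of 0.18 log2 units to each side, the lowest bound of any member was −0.47 and the highest was 0.46. The median spread between replicates was 0.10 log2 units on the corrected values. The error expected from the beads alone was 0.062, computed on signals before background correction, so it is on another scale and the 2 cannot be compared directly. Intervals included 0 for 34 of the 36 members. Because a member could pass the filter through 1 group alone, the 29 members detected on all 6 arrays were also taken by themselves: 16 lay above 0 and their median was 0.020, so the sign of the members' median turned. Leaving out 1 array moved the difference by over 1.5 times in 33 of the 36 members, all but H1-2, H2AC18 and H3C3.

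**Figure D1:**
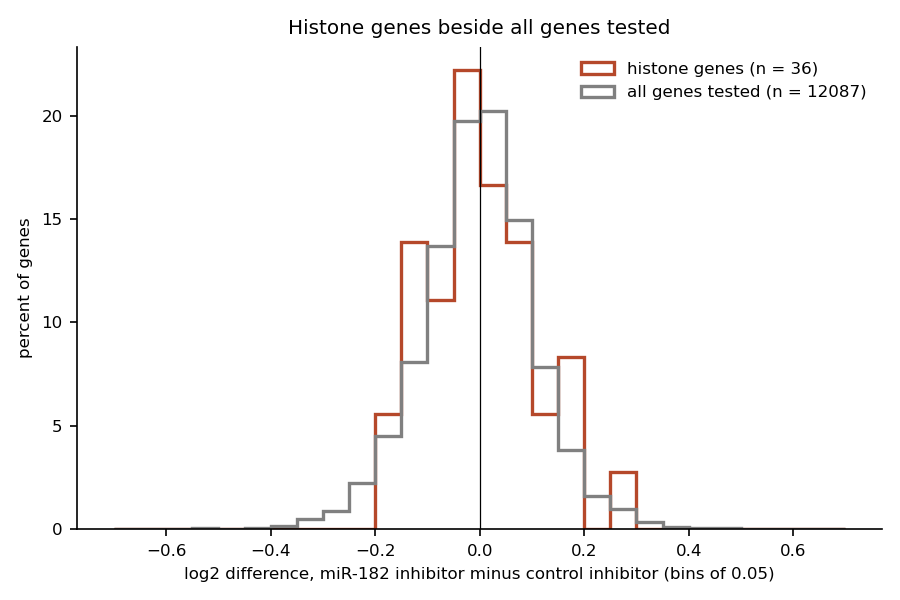
The percent of genes in bins of 0.05 log2 units of difference, miR-182 inhibitor minus control inhibitor, is drawn for the 36 tested histone genes and for all 12087 genes tested. The histone genes spread from −0.19 to 0.29 and lie over the centre of the distribution of all genes.

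Among H1 genes, 4 of 6 were tested, with 1 above and 3 below 0 and a median of −0.11. H1-2, a somatic linker histone, had signals of 6.97, 7.01 and 7.01 on the inhibitor arrays, against 6.98, 6.89 and 6.88 on the control arrays. Its lowest inhibitor array was within the range of the control arrays, and the difference was 0.08 ± 0.06 (SE, adjusted p = 0.799 in limma). H1-1, another somatic linker histone, read 4.39, 4.50 and 4.54 with the inhibitor and 4.55, 4.60 and 4.73 with the control. The groups did not overlap, but the gap between them was narrow and the signal close to background: the 3 control arrays detected H1-1, and none of the inhibitor arrays did. H1-1 thus met the detection filter through the control group alone. The observed mean of the control arrays was 1.04-fold above a floor taken per inhibitor array. The floor was the lowest detected signal there, unless H1-1 itself read higher. This bound leaves out the spread between arrays. The difference of −0.15 ± 0.07 did not pass (adjusted p = 0.681 in limma), and its interval of −0.32 to 0.013 included 0. H1-5 differed by −0.15 ± 0.13 and H1-3 by −0.07 ± 0.11, both on probes that missed detection on at least 1 array. Without control replicate 1, which read 4.48 for H1-5 against 4.97 and 5.00 on the other control arrays, the difference of H1-5 was −0.32 (adjusted p = 0.369 in limma), and without control replicate 3 it was −0.054. H1-4 and the testis linker histone H1-6 were not detected on 3 arrays.

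H2A genes were tested for 7 of 15 members, 4 above and 3 below 0, with a median of 0.061. H2AC18, a core H2A gene, had signals of 7.46, 7.57 and 7.57 with the inhibitor, against 7.30, 7.36 and 7.38 with the control. Every inhibitor array was above every control array, by a difference of 0.19 ± 0.07, and the adjusted p was 0.602 in limma. A second probe of H2AC18 read 6.98, 6.88 and 7.05 with the inhibitor, against 7.08, 6.94 and 6.85 with the control. There the groups overlapped fully and the difference was 0.011, so the separation rested on 1 of the gene's 2 probes.

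H2AC20, another core H2A gene, read 7.47, 7.69 and 7.60 with the inhibitor and 7.49, 7.45 and 7.63 with the control. The groups overlapped, and its difference was 0.06 ± 0.08 (adjusted p = 0.890 in limma). H2AC17 differed by 0.16 ± 0.12, H2AC6 by 0.09 ± 0.08, H2AC11 by −0.10 ± 0.10 and H2AC25 by −0.14 ± 0.10, all with intervals that include 0. With 1 array left out, H2AC17 ran from 0.060 to 0.31, H2AC6 from 0.042 to 0.16, H2AC11 from −0.19 to −0.058 and H2AC25 from −0.22 to −0.042. The probe of H2AC11 was detected on 3 arrays. H2AC13 differed by −0.11 ± 0.15, with inhibitor replicate 3 at 4.65 against 5.28 and 5.27 on the other inhibitor arrays. Without that array its difference was 0.097, of the opposite sign. The other 8 members, the testis gene H2AC1 among them, were not detected on 3 arrays, namely H2AC4, H2AC7, H2AC8, H2AC12, H2AC14, H2AC15 and H2AC21.

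H2B genes had the most members tested, 10 of 18, with 7 above and 3 below 0 and a median of 0.055, and 0 of them had an unadjusted p under 0.05. H2BC12, a core H2B gene for which a polyadenylated form is known, read 10.71, 10.64 and 10.70 with the inhibitor, against 10.61, 10.65 and 10.69 with the control. Its arrays agreed closely, with an SD of 0.035 in the inhibitor group and 0.040 in the control group, and the difference was 0.03 ± 0.06 (adjusted p = 0.931 in limma). The difference took the opposite sign when arrays were only scaled to their medians (−0.028) or left without normalization between them (−0.0041), settings in which the median of all genes was −0.037 and −0.014. A second probe of H2BC12 read 7.93, 7.94 and 7.88 with the inhibitor and 7.86, 7.84 and 7.81 with the control, a difference of 0.080 with groups that did not overlap (adjusted p = 0.820 in limma with every probe tested).

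H2BC11 read 8.64, 8.33 and 8.66 on the inhibitor arrays, against 8.35, 8.33 and 8.45 on the control arrays. Inhibitor replicates 1 and 3 lay above all control arrays, while replicate 2 lay at their low end. The difference was 0.17 ± 0.10 (adjusted p = 0.724 in limma) and became 0.28 without inhibitor replicate 2 and 0.11 without inhibitor replicate 3. H2BC4 read 4.73, 4.71 and 4.59 with the inhibitor and 4.79, 4.96 and 4.71 with the control. Its groups overlapped only at the edge, and the difference of −0.14 ± 0.08 had an adjusted p of 0.728 in limma.

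The remaining tested H2B genes differed by 0.12 ± 0.10 (H2BC15), 0.10 ± 0.07 (H2BC5), 0.09 ± 0.08 (H2BC18), 0.08 ± 0.09 (H2BC9), 0.03 ± 0.10 (H2BC14), −0.01 ± 0.12 (H2BC8) and −0.04 ± 0.10 (H2BC7). A second detected probe of H2BC5 gave −0.033. The 8 H2B genes not detected on 3 arrays were the testis gene H2BC1 and H2BC3, H2BC6, H2BC10, H2BC13, H2BC17, H2BC21 and H2BC26.

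H3 genes held the member with the smallest p of the whole set. H3C3, which encodes a canonical H3 protein, read 6.42, 6.59 and 6.41 on the inhibitor arrays, against 6.24, 6.11 and 6.21 on the control arrays. The groups did not overlap, with means of 6.47 ± 0.10 with the inhibitor and 6.18 ± 0.07 with the control (SD, n = 3 each). The difference was 0.29 ± 0.08, with a 95% interval of 0.12 to 0.46, and the adjusted p was 0.546 in limma, so H3C3 did not pass over all genes tested. Over the 16 alternatives its difference stayed above 0, between 0.18 and 0.32, and its lowest adjusted p was 0.442 in limma.

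In the H3 family, 7 of 9 tested genes lay below 0 and the median was −0.025, which turned to 0.019, with 5 above 0, without normalization between arrays. H3C8, another canonical H3 gene, read 5.02, 4.53 and 4.70 with the inhibitor and 4.85, 4.87 and 5.11 with the control. Inhibitor replicate 1 lay among the control arrays, and the difference of −0.19 ± 0.12 (adjusted p = 0.738 in limma) was −0.33 without it and −0.083 without inhibitor replicate 2. The other 7 differed by 0.05 ± 0.08 (H3C13), −0.00 ± 0.07 (H3C14), −0.01 ± 0.07 (H3C11), −0.02 ± 0.10 (H3C7), −0.04 ± 0.07 (H3C1), −0.06 ± 0.08 (H3C10) and −0.06 ± 0.08 (H3C4). A second detected probe of H3C13 gave −0.059. The probe of H3C7 was detected on 3 arrays and that of H3C8 on 5. H3C2 and H3C12 were not detected on 3 arrays.

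H4 genes differed by −0.07 to 0.02 over 6 tested members of 14, with 3 above and 3 below 0. H4C3 had signals of 13.73, 13.78 and 13.81 with the inhibitor, against 13.81, 13.75 and 13.83 with the control. The arrays overlapped throughout, and the difference was −0.03 ± 0.06 (adjusted p = 0.952 in limma), with a 95% interval of −0.17 to 0.11. H4C5 read 5.39, 5.32 and 5.20 with the inhibitor, against 5.25, 5.46 and 5.40 with the control, a difference of −0.07 ± 0.08 (adjusted p = 0.873 in limma). H4C14 differed by 0.02 ± 0.07, H4C8 by 0.02 ± 0.13, H4C2 by 0.01 ± 0.08 and H4C12 by −0.03 ± 0.07. The probe of H4C8 was detected on 5 arrays. This family holds the genes of core histone H4, and whether their proteins are identical was not checked. H4C1, H4C4, H4C6, H4C7, H4C9, H4C11, H4C13 and H4C16 were not detected on 3 arrays.

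**Figure D2:**
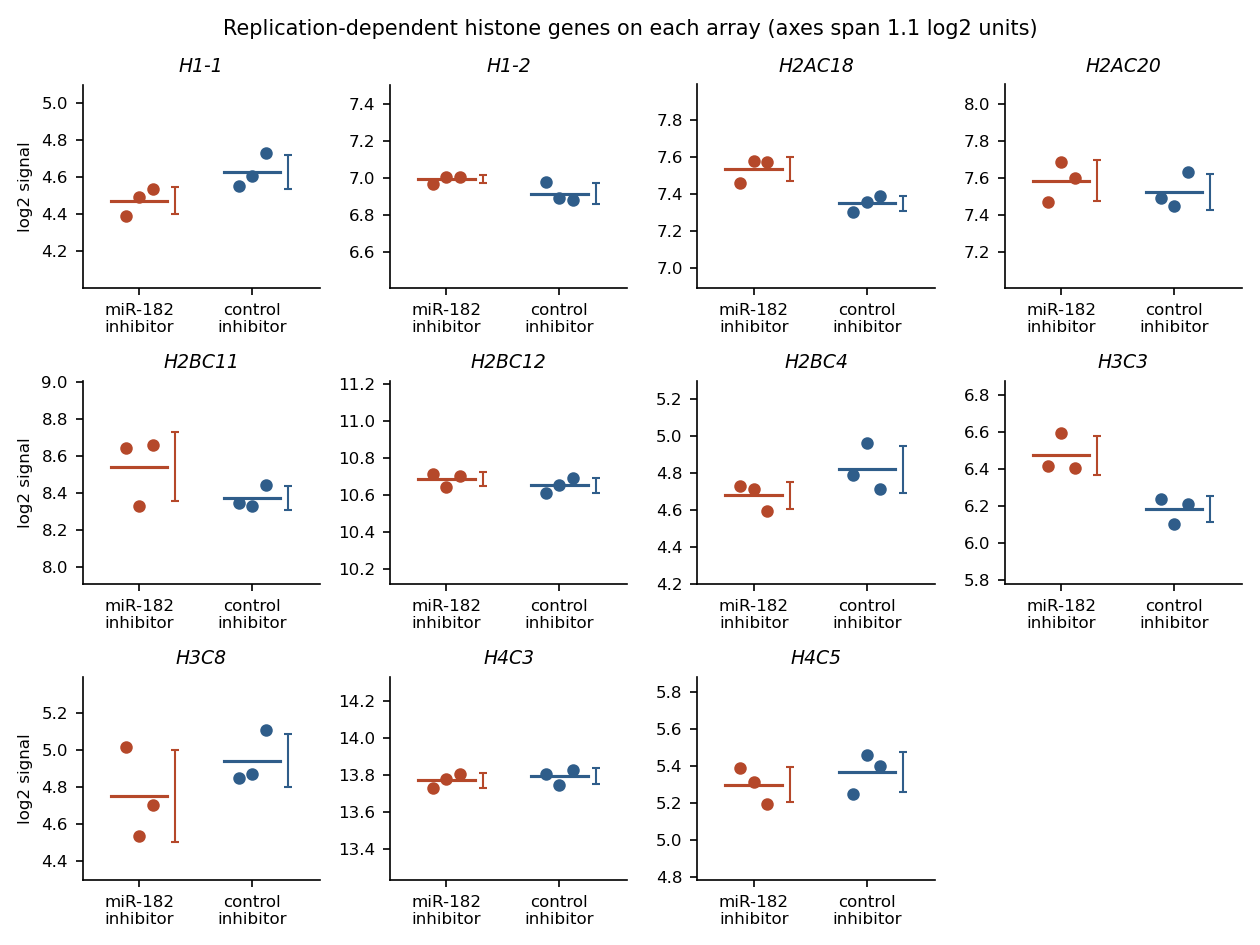
Log2 signal of 11 histone genes on each of 3 miR-182 inhibitor arrays (red, left) and 3 control inhibitor arrays (blue, right), with the mean as a line and the SD as a bar, and all panels span the same range. The groups are apart for H1-1, H2AC18 and H3C3 and overlap or touch for the other 8.

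**Figure D3:**
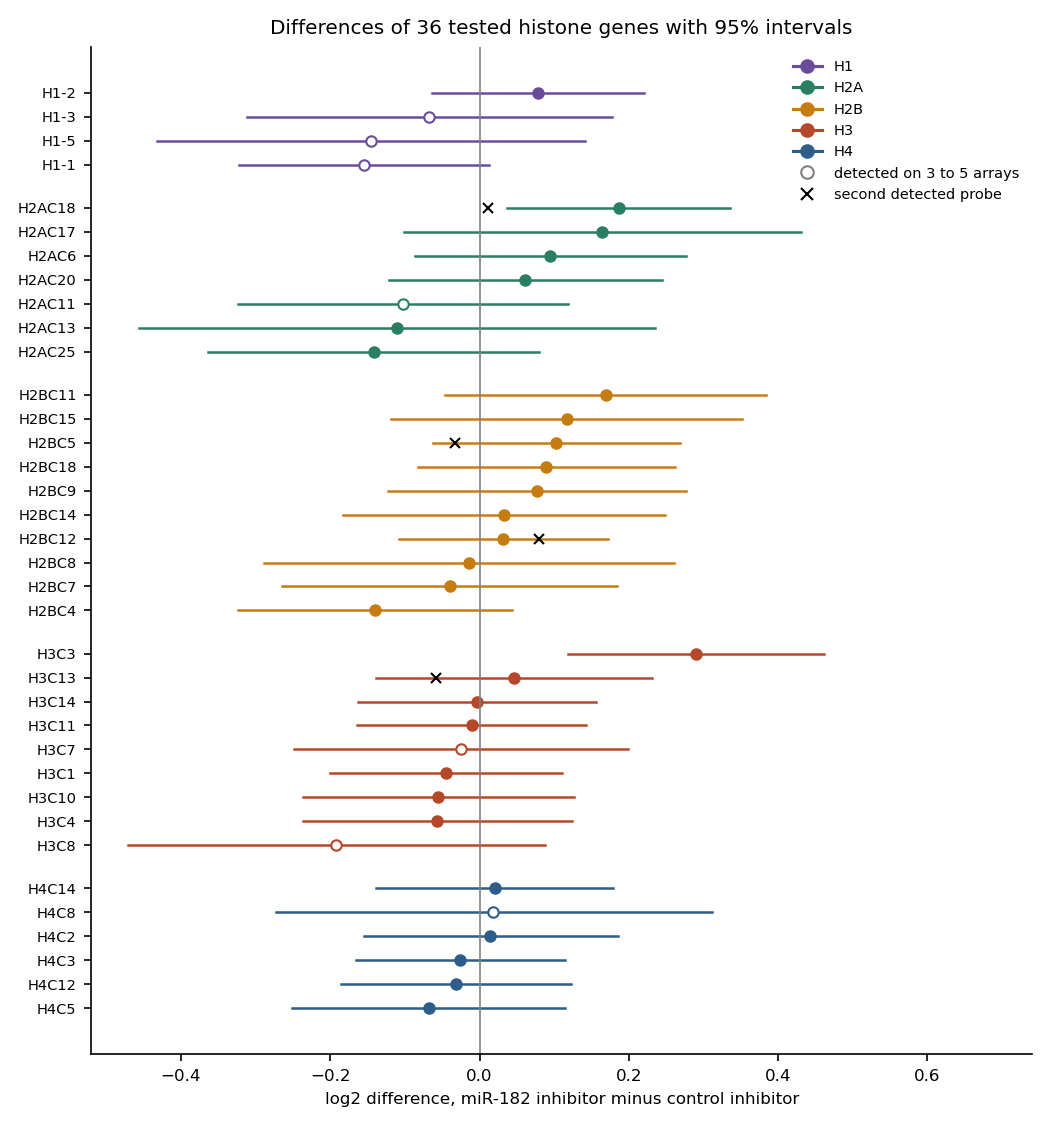
Log2 difference, miR-182 inhibitor minus control inhibitor, of the 36 tested histone genes by family, with 95% intervals from limma; open points were detected on 3 to 5 arrays and crosses are second detected probes. Intervals of H3C3 and H2AC18 leave out 0, and the second probe of H2AC18 lies at 0.011.

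Neighbouring members that share an upstream region were set side by side. Many H2A and H2B genes stand back to back, and 11 such pairs of members, and 1 of an H3 and an H2B gene, had starts within 300 bases of each other in RefSeq, 194 to 248 bases apart. H2BC7 is in 2 of these pairs, with H2AC7 and with H3C4, each at 223 bases, so the annotated starts of H2AC7 and H3C4 coincide. In 3 of the pairs, both members of the pair were tested. H2BC11 and H2AC11 differed by 0.17 and −0.10, H2BC4 and H2AC6 by −0.14 and 0.09, and H3C4 and H2BC7 by −0.06 and −0.04. H2AC11 was detected on 3 arrays and averaged 4.49 with the inhibitor and 4.60 with the control. H2BC4 averaged 4.68 and 4.82, so both genes were close to the lowest detected values of 4.50 to 4.62. By chromosome, 5 of 7 tested members on chromosome 1 and 12 of 29 on chromosome 6 lay above 0, with medians of 0.047 and −0.025. No test of this difference was made.

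By array, the groups overlapped in the overall level of the members. For each member, its value on an array was taken against its own mean over the 6 arrays. The median of this deviation over the 36 members was −0.0049, −0.024 and 0.033 with the inhibitor, against −0.033, −0.017 and 0.018 with the control. On inhibitor replicate 3, 23 members lay above their own mean, whereas 13 did on inhibitor replicate 2.

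Genes that make, process or deposit histones were read in the same fit, on lists chosen with earlier results of these data known. On none of the lists did a gene pass in either direction. Of 20 tested genes for histone mRNA processing and decay, 8 lay above 0, with a median of −0.029 (−0.070 after median scaling). SLBP, which binds the stem-loop and is needed for processing and translation of these transcripts, read 11.35, 11.37 and 11.35 with the inhibitor and 11.48, 11.63 and 11.42 with the control. Its groups did not overlap, but the difference of −0.15 ± 0.07 had an adjusted p of 0.673 in limma, and a second probe gave 0.027. LSM1, of the cytoplasmic decay complex, differed by 0.11 ± 0.06, ZNF473, a zinc finger protein of the processing machinery, by 0.12 ± 0.07, and TUT4, a uridylyltransferase, by −0.10 ± 0.06. ZNF473 had 2 other detected probes, of which 1 is given here, at −0.14.

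The list for histone gene transcription and the histone locus body, which also holds cyclins and CDK2, had 3 of 11 tested genes above 0. Its median was −0.011 (−0.052 after median scaling). NPAT, the coactivator of the histone locus body, read 6.46, 6.57 and 6.56 with the inhibitor, against 6.60, 6.75 and 6.67 with the control. It was lower on each inhibitor array than on any control array, with a difference of −0.14 ± 0.07 and an adjusted p of 0.681 in limma. HINFP, which binds H4 promoters, differed by −0.14 ± 0.08, NFYB, a subunit of the CCAAT-binding factor, by −0.13 ± 0.11, and the acetyltransferase CREBBP by 0.12 ± 0.06. Another CREBBP probe gave −0.099. HINFP had 2 other detected probes, of which 1 is given here, at 0.0047.

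Histone chaperones had 12 of 22 tested genes above 0 and a median of 0.0028, which was −0.039 after median scaling and −0.016 without normalization between arrays, where the median of all genes was −0.037 and −0.014. SUPT6H, an elongation factor that rebuilds nucleosomes behind the polymerase, read 6.16, 6.26 and 6.14 with the inhibitor and 6.34, 6.43 and 6.50 with the control. The groups lay apart by a difference of −0.24 ± 0.07 (adjusted p = 0.567 in limma). RBBP4, a histone-binding subunit of several complexes, differed by 0.17 ± 0.08, ASF1A, which hands H3 and H4 to other chaperones, by 0.15 ± 0.07, and UBN1, of the HIRA complex, by 0.13 ± 0.07. Another probe of RBBP4 gave 0.056.

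S-phase genes, which are active when these histones are made, had 18 of 35 tested genes above 0 and a median of 0.016 (−0.037 after median scaling and −0.013 without normalization between arrays). PCNA, the sliding clamp of the replication fork, read 11.01, 10.91 and 10.89 with the inhibitor, against 10.88, 10.76 and 10.71 with the control. UHRF1, which maintains DNA methylation behind the fork, read 11.64, 11.60 and 11.64 with the inhibitor and 11.49, 11.49 and 11.46 with the control. Both were higher on every inhibitor array, by 0.16 ± 0.07 and 0.15 ± 0.06, with adjusted p-values of 0.667 and 0.624 in limma. PCNA had 2 other detected probes, of which 1 is given here, at 0.020. The other UHRF1 probe gave −0.062. FEN1, the flap endonuclease, differed by 0.12 ± 0.06, and POLA1, the catalytic subunit of polymerase alpha, by −0.15 ± 0.08, with other probes at 0.065 and −0.18.

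Replacement variants, which enter chromatin outside replication, had 4 of 11 tested genes above 0 and a median of −0.0096 (−0.0879 after median scaling and −0.064 without normalization between arrays). MACROH2A2, an H2A variant with a macrodomain, read 4.71, 4.75 and 4.81 with the inhibitor, against 4.46, 4.43 and 4.38 with the control, and was detected on no control array. The observed mean of the inhibitor arrays was 1.16-fold above a floor taken per control array, as described for H1-1. This bound leaves out the spread between arrays. The adjusted p of MACROH2A2 was 0.542 in limma. In the deposited value table its difference was 0.14. H2AX, the variant phosphorylated at DNA breaks, differed by −0.16 ± 0.10, H2AJ by −0.13 ± 0.09 and H2AZ2 by 0.12 ± 0.09.

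**Figure D4:**
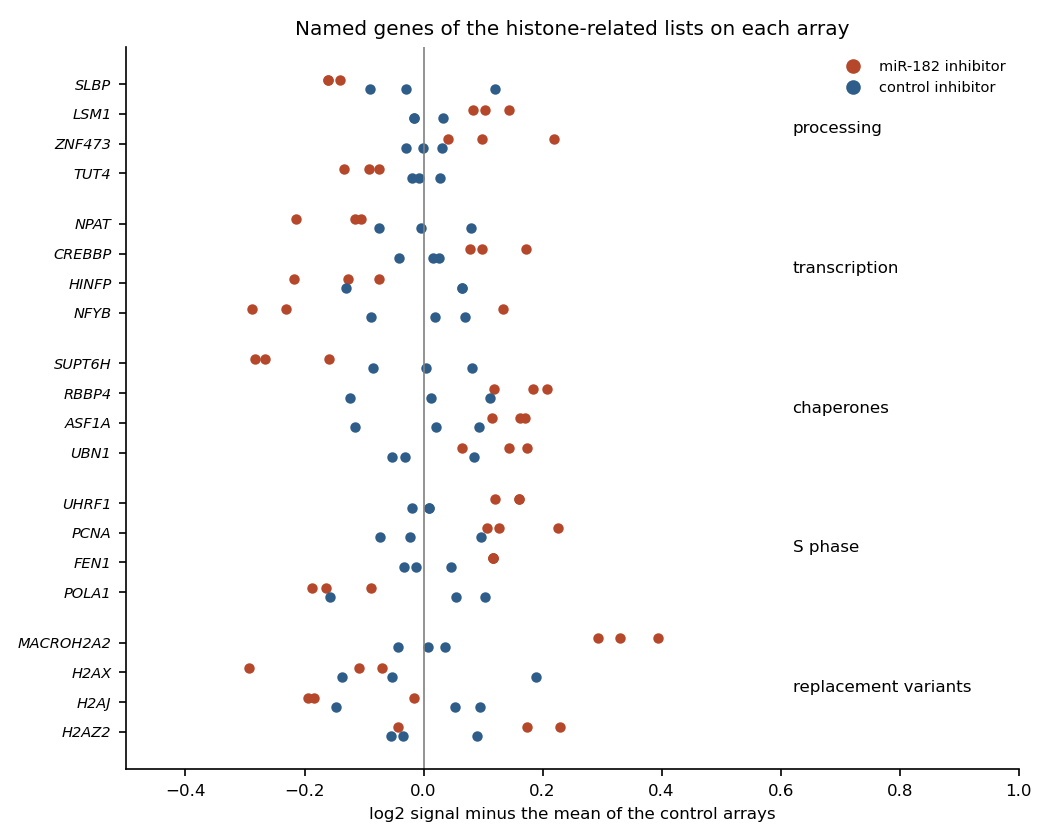
Log2 signal of 20 genes of the histone-related lists on each array, given relative to the mean of the control arrays, with miR-182 inhibitor arrays in red above and control inhibitor arrays in blue below. MACROH2A2, which no control array detected, lies to the right and SUPT6H to the left on all 3 inhibitor arrays, and 0 of the 20 genes passed the test.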

How the data were processed

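Gene expression was measured on Illumina bead arrays, 1 per sample, 3 with the miR-182 inhibitor and 3 with the control inhibitor, grouped by the sample descriptions. Per the file headers, the authors deposited a mean signal intensity per probe on a linear scale, the spread and number of its beads, and a detection value, a fraction from 0 to 1. BeadStudio is the tool listed in the submitters' processing notes. The deposited intensities were treated as not normalized, and 1 minus the fraction as the detection p. The authors' value table, put by the authors onto one distribution (median intensity 47.2) by a method not given in the sources used here, was an alternative.

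Probes have bead addresses in the array files and names in the value table; their rank order matched within each array, and the ranks on the 6 arrays paired all 48803 probes. The platform annotation gave 28098 probes 1 gene, 13 several and 20692 none, and 0 symbols needed an update through Entrez identifiers in RefSeq (GRCh38.p14). The rule's symbols match 69 RefSeq genes; H2AC16, H2AC19, H3C6, H3C15 and H4C15 have no probe named for them alone. Intensities were corrected with neqc (offset 16, limma 3.58.1, R 4.3.3) and taken to log2. A gene was tested by its named probe with the highest mean among those with detection p under 0.05 on at least 3 arrays (12087 genes), by 2-sided tests from lmFit and eBayes, as inhibitor minus control, and p-values were adjusted by Benjamini-Hochberg across these genes; 4 residual degrees of freedom were joined by 5.19 from the prior. The fit was tested on simulated data. The members and lists were chosen with earlier results of these data known.

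Every tested member is named with its difference. Values on each array are given, per family, for the member with the highest mean and the one with the smallest p, and for the 6 members with the smallest p; each list names its 4 smallest p, with SLBP, NPAT and PCNA. No slide or scan date was used, so batches were not tested. Alternatives were a replicate block, other normalizations, the value table, other detection filters, other variance models, every probe on its own and each array left out. Same-numbered arrays correlated across genes at 0.020, 0.0032 and −0.0060 in their deviations from group means, so the numbers do not pair arrays.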

Additional observations from a re-analysis of the deposited data

How the results depend on the processing

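Over 16 alternatives, 0 histone genes passed, their lowest adjusted p in limma being 0.369. Of the 36 members, 20 kept their sign under all 16 and 16 changed it under at least 1. Of the 20 named list genes, 0 changed sign. Those genes had been picked for the smallest p in their lists, so their count cannot be compared with that of the members. With a replicate block 0 of 12087 genes and 0 members passed, and no call changed. The only settings with calls were no normalization between arrays (2 genes higher, 3 lower) and median scaling (2 higher, 5 lower), where the median of all genes moved to −0.014 and −0.037 and the members' median to 0.020 and −0.0035. With detection on all 6 arrays the members' median was 0.020. Without normalization between arrays, H2BC12 lay at −0.0041, H3C11 at 0.022, H3C14 at 0.022 and H3C7 at 0.019. H2BC12 lay at −0.028 after median scaling, and H2BC8 at 0.0013 with array weights. Also without normalization, 5 processing genes and 1 transcription gene lay above 0, and the medians of chaperones, S-phase genes and replacement variants were −0.016, −0.013 and −0.064. After median scaling, 4 processing, 1 transcription, 7 chaperone and 10 S-phase genes lay above 0, with medians of −0.070, −0.052, −0.039 and −0.037, and −0.0879 for replacement variants. Of all genes tested, 34.7% lay above 0 after median scaling and 44.4% without normalization between arrays. With every probe on its own, 5 transcription probes lay above 0 and the chaperone median was 0.013. The cause of these moves was not tested.

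With 1 array left out, the members' median ran from −0.018 to 0.014 and the number above 0 from 16 to 20. List medians ran from −0.078 to −0.016 for processing, −0.085 to −0.016 for transcription (3 to 5 genes above 0), −0.013 to 0.0094 for chaperones, 0.000076 to 0.031 for S-phase genes and −0.034 to 0.018 for replacement variants. Members that crossed 0 ran from −0.16 to 0.031 (H1-3), −0.22 to 0.097 (H2AC13), −0.056 to 0.10 (H2BC14), −0.12 to 0.046 (H2BC7), −0.12 to 0.11 (H2BC8), −0.0061 to 0.14 (H2BC9), −0.10 to 0.026 (H3C10), −0.056 to 0.028 (H3C11), −0.0086 to 0.12 (H3C13), −0.049 to 0.031 (H3C14), −0.11 to 0.049 (H3C7), −0.066 to 0.0077 (H4C12), −0.021 to 0.060 (H4C14), −0.034 to 0.076 (H4C2) and −0.078 to 0.16 (H4C8). For probes near background, signal limits what can be read.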

Other observations

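Histone probes too dim to be tested lay mostly below 0. Of the 28 members with no probe detected on 3 arrays, 20 had no array with a detected signal on their best probe and 8 had 1 or 2. Taken without a filter, 8 of these 28 lay above 0 and 20 below it (28.6% above), with a median log2 difference of −0.023, against 50.5% above 0 and a median of 0.00075 among all 6765 genes named on the array that were not tested. Differences ran from −0.20 to 0.063. The inhibitor arrays lay wholly below the control arrays in 2 members, H4C16 and H2AC7 (7.14%, against 4.75% of the untested genes), and wholly above them in 0. Among the 6765 untested genes, 336 lay wholly above and 321 wholly below. The lowest adjusted p in limma without a filter was 0.656 among the 28 members. These probes were at background, members share sequence, and the pattern was seen in the data before it was counted.

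More histone probes were detected on the control arrays. Of the 72 probes, 37, 39 and 37 passed the detection p on the inhibitor arrays, against 44, 40 and 41 on the control arrays. As 33 probes were detected on all 6 arrays and 24 on none, the counts differed only through probes near the detection limit. These were 7 probes detected on 3 to 5 arrays and 8 detected on 1 or 2. The latter belong to the dim members above, so the 2 observations are not separate. Over all probes the counts were 20365, 21623 and 20994 with the inhibitor and 22473, 20895 and 21216 with the control, where the groups overlapped. The part of these totals in the histone counts was not tested.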
